A study of Mus musculus with 9 samples.

Results

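Atf4, the transcription factor at the centre of the integrated stress response, was followed together with 9 genes commonly used to read out its activity: Ddit3, Trib3, Sesn2, Chac1, Asns, Psat1, Phgdh, Fgf21 and Gdf15. The 10 genes were chosen by symbol, with earlier results of these data known. They were matched through the authors' symbol column and Ensembl identifiers to the count table, which lists 55487 genes. All 10 were found, and 8 of them had enough counts to be tested, among 14851 tested genes in all. Fgf21 and Gdf15 had too few counts.

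The tissue was the gastrocnemius, a calf muscle, of wild-type C57BL/6 mice (C57BL/6J in the study's text) that the labels call male, and polyadenylated RNA of whole powdered muscle was sequenced. The 4 Control libraries came from mice kept in conventional cages. The 2 Unloading libraries were taken on day 10 of hindlimb unloading, in which the tail is held up so that the hind legs carry no weight. The 3 Reloading libraries came from mice unloaded in the same way that had then spent 1 day in normal cage activity. No age is given for these mice in the sources used here, and the labels number the libraries as replicates without naming the animals, so the p-values measure the spread between libraries. In the study's methods the unloaded mice are female, whereas the highest count of Xist in any library was 5 and the lowest count of any of 4 Y-linked genes was 164.

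In the integrated stress response, kinases that sense unfolded protein, amino acid shortage, heme shortage or viral RNA phosphorylate the translation initiation factor eIF2. This lowers protein synthesis in general, while the Atf4 message is translated more. Atf4 protein then pairs with C/EBP family partners and drives genes for amino acid synthesis and import, for stress signalling and, in muscle, for secreted hormones. Because Atf4 is controlled largely through its translation, its mRNA level is only part of its regulation, and these data hold mRNA only.

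The DNA element that Atf4 and C/EBP partners bind together, the C/EBP-ATF response element, was searched for as TGATGNAA on both strands in the RefSeq promoters of GRCm38.p6, which run from 250 bases before to 50 bases after each transcript start. All 10 genes had a promoter in that table. The element was present in 4 of the 10 genes, compared to 4.51% of 27025 genes. The 10 genes were picked as readouts of Atf4, so this share is not a separate result. The element lay at -193 to -186 of the RefSeq start in Chac1, at -23 to -16 in Asns, at -139 to -132 in Fgf21 and at 14 to 21 after the start in Trib3. The upstream 250 bases of 3 of these promoters are shown because Chac1 and Asns, which both match the element, moved in opposite directions on reloading, and because Fgf21 matches it and stayed close to 0 counts. The first of 2 listed Psat1 promoters is shown as the gene with the largest rise among the members and no match in either promoter. Capitals mark the element, which in Chac1 and Fgf21 reads TTGCATCA because it lies on the opposite strand.
Chac1 (chr2:119350992-119351241, plus strand): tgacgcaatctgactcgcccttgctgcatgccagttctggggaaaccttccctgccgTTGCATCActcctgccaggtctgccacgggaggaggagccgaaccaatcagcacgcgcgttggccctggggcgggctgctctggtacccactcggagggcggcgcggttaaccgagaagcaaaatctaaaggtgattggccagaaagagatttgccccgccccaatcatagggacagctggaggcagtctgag
Asns (chr6:7693210-7693459, minus strand): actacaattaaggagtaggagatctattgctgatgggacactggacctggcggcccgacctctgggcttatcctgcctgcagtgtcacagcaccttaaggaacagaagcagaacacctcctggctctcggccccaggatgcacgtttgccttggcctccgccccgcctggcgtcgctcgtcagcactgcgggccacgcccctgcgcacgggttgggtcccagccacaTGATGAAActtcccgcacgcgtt
Fgf21 (chr7:45615491-45615740, minus strand): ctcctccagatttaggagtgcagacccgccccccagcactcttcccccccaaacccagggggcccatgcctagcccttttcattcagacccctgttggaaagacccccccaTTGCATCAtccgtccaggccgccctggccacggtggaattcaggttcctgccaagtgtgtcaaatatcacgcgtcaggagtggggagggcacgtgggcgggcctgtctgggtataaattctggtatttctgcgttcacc
Psat1 (chr19:15924623-15924872, minus strand): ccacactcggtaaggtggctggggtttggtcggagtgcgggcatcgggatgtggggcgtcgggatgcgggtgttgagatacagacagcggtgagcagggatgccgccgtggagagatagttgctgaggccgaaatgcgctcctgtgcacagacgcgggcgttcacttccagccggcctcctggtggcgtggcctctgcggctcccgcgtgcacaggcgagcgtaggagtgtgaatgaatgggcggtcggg
The cyclic AMP response element TGACGTCA was in none of the 10 genes and in 2.03% of all genes, and the endoplasmic reticulum stress response element (CCAAT and CCACG with 9 bases between them) was in none of the 10 and in 0.137% of all genes, each on both strands. A match of letters is a description of the window and not a measured binding site.

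The libraries held from 9252443 to 19612101 read pairs in genes. Counts were scaled to CPM (counts per 1000000 read pairs in genes) with the trimmed mean of M-values (TMM), and 3 read pairs, taken here as the floor of detection, came to 0.164 to 0.338 CPM. Mitochondrial genes took 9.36% to 10.6% of the counts in the 6 Control and Unloading libraries and 6.49% to 6.75% in Reloading. The TMM factors were 0.928 to 0.960 and 1.11 to 1.13 in the same libraries, so that changes on reloading are relative to this scaling: with library totals alone Reloading against Unloading had a median of 0.27 on the log2 scale over all tested genes, instead of 0.03. Control 2 and Reloading 1 held skin transcripts, with summed CPM of 7 keratinocyte markers of 296 and 135, compared to 2.31 to 4.29 in the other 7. Defining fast-fibre markers were abundant in every library, as the tissue label calls for, with summed CPM of 6 genes from 76150 to 114700.

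Relative to Unloading, 5 of the 8 tested genes were higher in Reloading (Atf4, Ddit3, Trib3, Asns and Psat1) and 1 was lower (Chac1), at an adjusted p under 0.05 in edgeR's quasi-likelihood test over all genes. Of all tested genes, 18.5% were higher and 19.0% lower by the same rule, 37.5% in either direction. The median log2 fold change of the 8 genes was 0.76, and that of all genes was 0.03. Relative to Control, 10 days of unloading changed 1 gene of the 8, Chac1, which was higher, where 4.40% of all tested genes were higher and 5.50% lower, 9.90% in either direction. Relative to Control, Reloading had 5 of the 8 genes higher and none lower, where 22.1% of all genes were higher and 21.3% lower, 43.5% in either direction. Markers of macrophages, endothelium and smooth muscle were higher in the same Reloading libraries, and fast-fibre and slow-fibre markers lower, in summed CPM. Their values are given with the cell type markers, and their part in these counts was not tested. The comparisons share libraries, so the Unloading level of each gene enters both the first and the second of these counts.

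**Figure D1:**
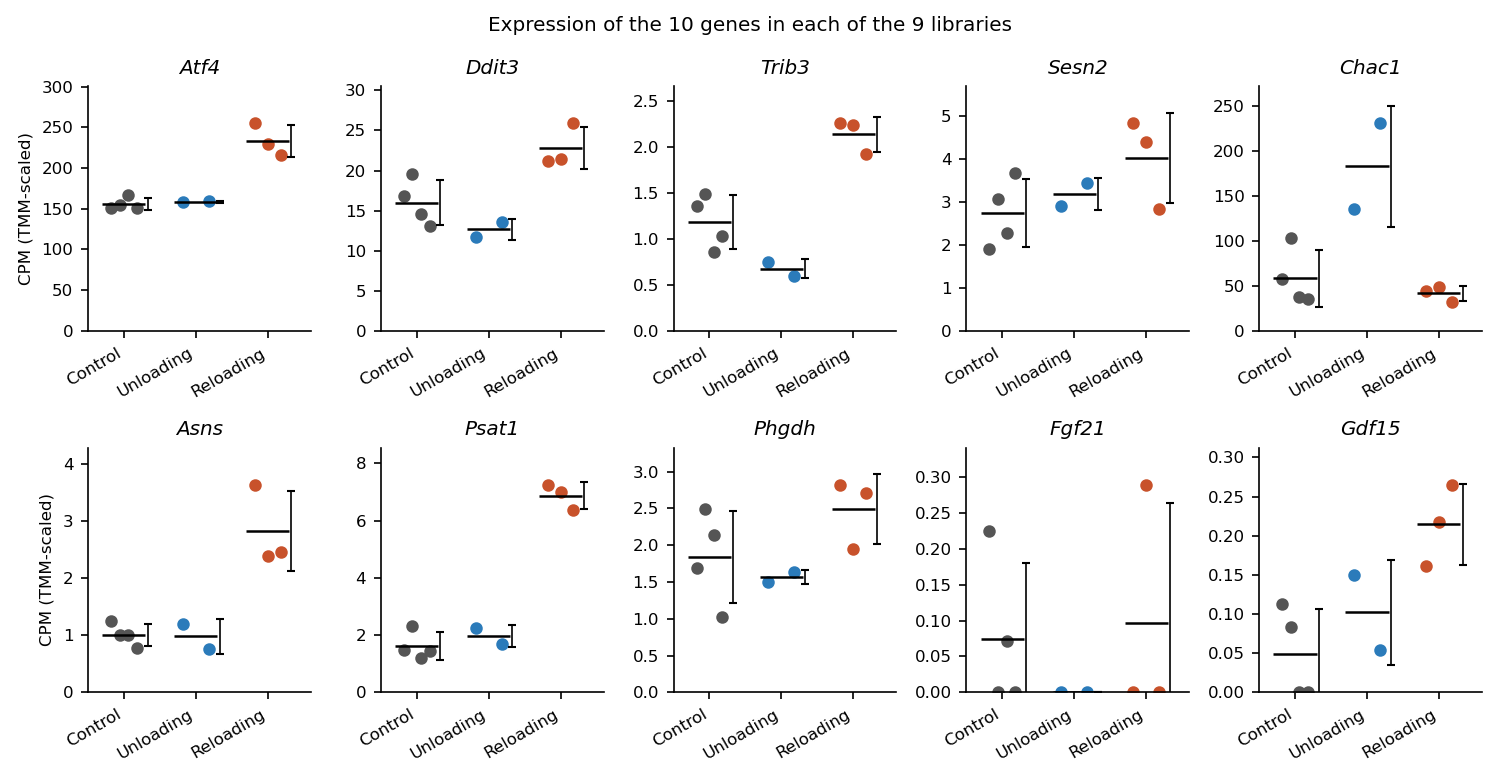
Expression of the 10 genes in CPM (TMM-scaled, linear axes starting at 0) in each of the 9 libraries, with 1 point per library, a horizontal line at the group mean and a bar of 1 SD beside it. All 3 Reloading points lie above the other 6 for Atf4, Ddit3, Trib3, Asns and Psat1, and both Unloading points lie above all others for Chac1, while Fgf21 and Gdf15 stay under 0.3 CPM in every library.

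Atf4 (ENSMUSG00000042406, GRCm38 chr15:80255184-80257541, plus strand) had 151, 154, 166 and 151 CPM in Control 1 to 4, 158 and 159 CPM in Unloading 1 and 2, and 255, 229 and 216 CPM in Reloading 1 to 3. Every Reloading library was above every other library, while the Unloading values lay inside the Control range. Reloading exceeded Unloading by 47.5% (log2 fold change 0.56 ± 0.083, SE here and below, adjusted p 0.000113). Reloading was 50.1% higher than Control (log2 fold change 0.59 ± 0.068, adjusted p 7.77e-06). Unloading differed from Control by a log2 fold change of 0.02, with a 95% interval from -0.14 to 0.19 and an adjusted p of 0.873. The difference between Reloading and Unloading was 0.49 to 0.81 on the log2 scale over 19 alternative analyses, and passed the threshold in each.

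Ddit3 (ENSMUSG00000025408, chr10:127290774-127296288), which encodes CHOP, a C/EBP family factor induced in prolonged stress, had 16.8, 19.6, 14.6 and 13.0 CPM in Control, 11.7 and 13.6 CPM in Unloading and 21.2, 21.5 and 25.9 CPM in Reloading. The Reloading libraries were again above all others, and the Unloading libraries overlapped the lower end of Control. The log2 fold change was 0.85 ± 0.15 against Unloading (adjusted p 0.00062) and 0.52 ± 0.13 against Control (adjusted p 0.00408). Unloading against Control gave -0.33 ± 0.15, which did not pass (adjusted p 0.184). Of the exon bases of Ddit3, 10.9% overlap 3 other gene models. Of its 50-base sequences, 4.38% occur in 2 other gene models, a second entry named Ddit3 and Mars. Reads from those stretches cannot be assigned to this Ddit3 entry alone.

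Trib3 (ENSMUSG00000032715, chr2:152337422-152344032), a pseudokinase that restrains Atf4 and Ddit3 as a feedback regulator, was present at low level, with 10 to 31 counts per library. It had 1.35, 1.49, 0.857 and 1.03 CPM in Control, 0.749 and 0.601 CPM in Unloading and 2.26, 2.24 and 1.92 CPM in Reloading. The 3 groups did not overlap: both Unloading libraries were below all Control libraries, which were below all Reloading libraries. Reloading exceeded Unloading 3.17-fold (log2 fold change 1.67 ± 0.32, adjusted p 0.000885) and Control 1.82-fold (0.87 ± 0.25, adjusted p 0.0108). The lower level in Unloading than in Control, -0.80 ± 0.34, did not pass the threshold (adjusted p 0.147). The difference between Reloading and Control missed the threshold with the Wald test of DESeq2 (adjusted p 0.0851).

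Sesn2 (ENSMUSG00000028893, chr4:132492032-132510501), a leucine sensor that holds back mTORC1, had 1.92, 3.07, 2.29 and 3.69 CPM in Control, 2.92 and 3.44 CPM in Unloading and 4.84, 4.41 and 2.85 CPM in Reloading. Reloading 3 lay below both Unloading libraries and inside the Control range. No comparison passed: the log2 fold change was 0.32 against Unloading (95% interval -0.24 to 0.88, adjusted p 0.363) and 0.53 against Control (0.04 to 1.03, adjusted p 0.0773). Without Reloading 3 the difference from Control was 0.74 (adjusted p 0.0198), and without Control 4 it was 0.70 (adjusted p 0.0315).

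Chac1 (ENSMUSG00000027313, chr2:119351229-119354381, plus strand) encodes an enzyme that degrades glutathione and is among the usual Atf4 and Ddit3 targets. It had 57.7, 104, 37.6 and 35.7 CPM in Control, 135 and 231 CPM in Unloading and 44.7, 48.6 and 32.0 CPM in Reloading. Both Unloading libraries were above all others, and Reloading overlapped Control. Chac1 was the 1 member called higher in Unloading than in Control and the 1 member called lower in Reloading than in Unloading; both calls rest on the same 2 Unloading libraries. It was 3.13-fold higher in Unloading than in Control (log2 fold change 1.65 ± 0.31, adjusted p 0.00486), which placed it 19th from the top of 14851 tested genes. It was 4.41-fold lower in Reloading than in Unloading (-2.14 ± 0.34, adjusted p 0.000195), the 11th lowest of all. Reloading against Control gave -0.49, with a 95% interval from -1.14 to 0.15 (adjusted p 0.206).

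Among the 8 tested genes, Chac1 had the widest relative spread in Control, with an SD of 31.6 around a mean of 58.7 CPM (n = 4), or 53.9%, and the 2 Unloading libraries differed by an SD of 67.6 around 183 CPM. Control 2, the highest Control library, is one of the 2 that held skin transcripts; without Control 2 and Reloading 1 the difference between Unloading and Control was 2.09 (adjusted p 0.000215). Without Unloading 2 it was 1.21 (adjusted p 0.0594), and with robust dispersion estimates it kept its size with an adjusted p of 0.0818, so this call depended on the higher of 2 libraries and on the dispersion estimate. The lower level in Reloading than in Unloading passed under all 19 alternatives, at -2.48 to -1.71.

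Among the enzymes of amino acid synthesis, Psat1 and Asns were higher in Reloading and Phgdh did not pass. Psat1 (ENSMUSG00000024640, chr19:15904678-15947337), which catalyses a middle step of serine synthesis, had 1.47, 2.32, 1.21 and 1.46 CPM in Control, 2.25 and 1.69 CPM in Unloading and 7.25, 7.01 and 6.36 CPM in Reloading. The lowest Reloading library was far above the highest of the other 6. Reloading exceeded Unloading 3.52-fold (log2 fold change 1.82 ± 0.23, adjusted p 2.99e-05) and Control 4.24-fold (2.08 ± 0.20, adjusted p 1.17e-06). Unloading against Control gave 0.27, with a 95% interval from -0.29 to 0.82.

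Asns (ENSMUSG00000029752, chr6:7675169-7693254), which makes asparagine, had 1.24, 0.995, 1.00 and 0.772 CPM in Control, 1.198 and 0.765 CPM in Unloading and 3.63, 2.39 and 2.45 CPM in Reloading, from 9 to 45 counts per library. Reloading was above all other libraries, and Unloading overlapped Control. The log2 fold change was 1.54 ± 0.31 against Unloading (adjusted p 0.00125) and 1.49 ± 0.26 against Control (adjusted p 0.000307). Between Unloading and Control it was -0.05, and its sign depended on which library was left out.

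Phgdh (ENSMUSG00000053398, chr3:98313170-98339990), the entry enzyme of serine synthesis, had 1.69, 2.49, 2.14 and 1.03 CPM in Control, 1.497 and 1.64 CPM in Unloading and 2.82, 1.95 and 2.72 CPM in Reloading. Its Reloading libraries were above both Unloading libraries and overlapped Control. No comparison passed, with log2 fold changes of 0.66 against Unloading (95% interval -0.006 to 1.33, adjusted p 0.111) and 0.42 against Control (-0.14 to 0.99, adjusted p 0.211). With library totals alone both passed (adjusted p 0.031 and 0.0499). Of the 50-base sequences of Phgdh, 47.8% occur in 23 other gene models, among them the pseudogene Phgdh-ps1, so its level is uncertain.

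The secreted hormones were at or near the floor. Fgf21 (ENSMUSG00000030827, chr7:45613886-45615490), an endocrine signal of metabolic stress, had 2, 0, 1 and 0 counts in Control, 0 and 0 in Unloading and 0, 4 and 0 in Reloading. Gdf15 (ENSMUSG00000038508, chr8:70629393-70632456), a hormone that lowers appetite through the brainstem receptor Gfral, had 1, 1, 0 and 0 counts in Control, 2 and 1 in Unloading and 2, 3 and 4 in Reloading. No fold is given for either, and a difference was not detectable at this depth.

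**Figure D2:**
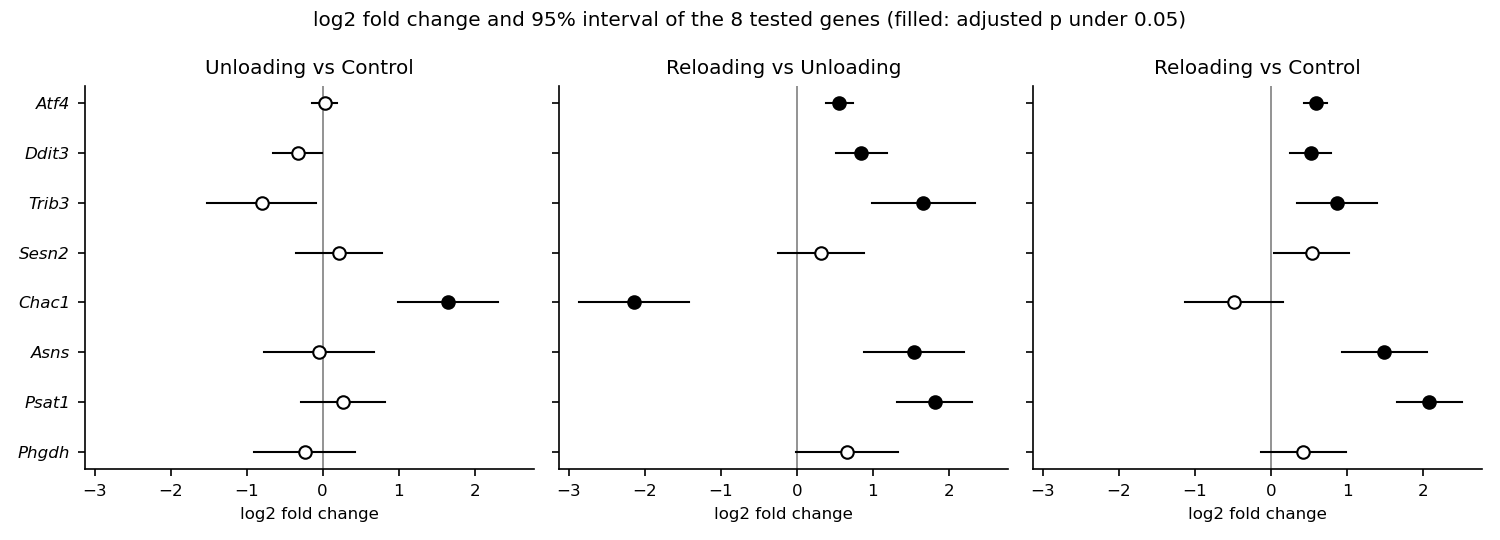
The log2 fold change of each of the 8 tested genes with its 95% interval in the 3 comparisons, with filled points where the adjusted p is under 0.05 and a grey line at 0. Unloading against Control has 1 filled point (Chac1, right of 0), Reloading against Unloading has 6, with Chac1 alone to the left of 0, and Reloading against Control has 5, all to the right.

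The groups were also compared by whether their CPM overlapped at all. Between Reloading and Unloading, 6 of the 8 genes were higher without overlap and 1 lower, where 31.0% and 29.0% of all tested genes were. Between Unloading and Control, 1 gene (Chac1) was higher and 1 (Trib3) lower, with 16.4% and 16.6% of all genes. Between Reloading and Control, 5 were higher and none lower, with 24.2% and 22.7% of all genes. Leaving out Control 2 and Reloading 1 left the counts past the threshold at 6, 1 and 5.

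Levels of different genes were compared per length, as CPM per kilobase of exon. In Control the order was Atf4 (66.0 ± 3.14, SD, n = 4), Chac1 (35.9 ± 19.3) and Ddit3 (9.34 ± 1.66), with the other tested members under 1 on average. In Unloading Chac1 stood above Atf4, with 82.8 to 141 against 66.9 to 67.4 CPM per kilobase in the 2 libraries. In Reloading the order was again Atf4 (99.0 ± 8.30, SD, n = 3), Chac1 (25.5 ± 5.30) and Ddit3 (13.3 ± 1.54). Among the low members, Sesn2, Phgdh, Trib3, Psat1 and Asns overlapped their neighbours in that order in Control. In Reloading the 3 Psat1 values, 1.495 to 1.71 CPM per kilobase, were above those of the other four, which reached at most 1.39.

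The genes whose profile over the 9 libraries was closest to that of Atf4, by the root mean square difference of log2 CPM centred per gene, were Cnksr1 (0.045), Polr1c (0.047) and Tmem248 (0.048), out of 9867 genes with a symbol and a mean log2 CPM of at least 2. Polr1c, a subunit of RNA polymerases I and III, had 10.6 ± 0.548 CPM in Control (SD, n = 4), 10.7 ± 0.264 in Unloading (n = 2) and 15.8 ± 1.85 in Reloading (n = 3). Cnksr1, a scaffold of Ras signalling, had 76.9 ± 1.82, 75.2 ± 2.46 and 117 ± 7.02 CPM in the same groups. The members were ranked by the same measure among all 14850 other tested genes, without the limits on symbol and level. None was near the top: Ddit3 came 3002nd, Sesn2 4763rd, Phgdh 5131st, Trib3 8521st, Asns 9332nd, Psat1 13878th and Chac1 14693rd. The measure penalises a change of another size as much as one of another shape, and counting noise is larger in the low members.

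Chac1 was ranked in the same way after its values had been seen. The closest genes were Flvcr1 (0.203), a transporter linked to heme and choline, Inmt (0.519), a methyltransferase, and Abca1 (0.555), a cholesterol exporter. Flvcr1 had 17.5, 25.7, 11.9 and 13.1 CPM in Control, 49.6 and 81.2 CPM in Unloading and 16.0, 14.6 and 13.1 CPM in Reloading. Control 2 was the highest Control library and Unloading 2 the higher Unloading library for Flvcr1, as they were for Chac1. The ranking picks genes for such likeness over these libraries, so the shared order is not a separate result. Inmt rose without that order, with 41.5 ± 0.639 CPM in Unloading (SD, n = 2) and 15.7 ± 2.89 in Control (n = 4).

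**Figure D3:**
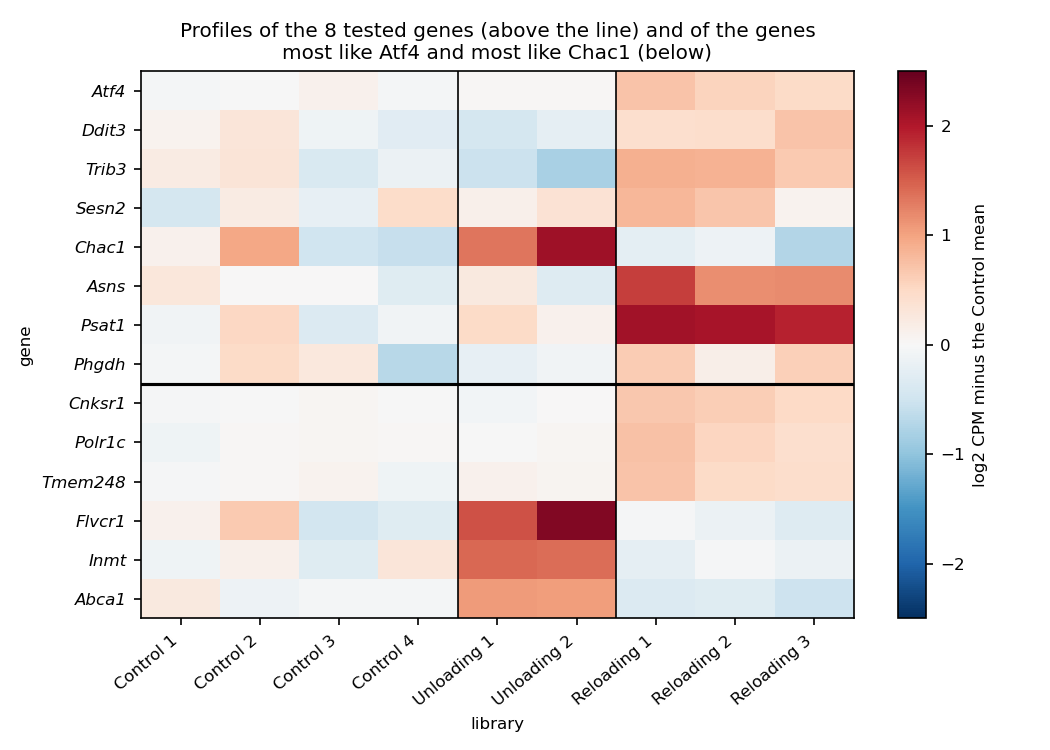
Heat map of log2 CPM minus the Control mean, with libraries on the horizontal axis and genes on the vertical axis, the 8 tested members above the line and the 3 genes most like Atf4 and the 3 most like Chac1 below it. Red marks values above the Control mean and blue values below it; the red block of Chac1, Flvcr1, Inmt and Abca1 sits in the Unloading columns, and that of the other members except Chac1 sits in the Reloading columns.

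The wider pathway and related genes were read from 12 lists with 98 genes, of which 94 could be tested. The lists include genes driven mainly by other stress sensors, mitochondrial stress genes, relatives of the members and receptors. Between Reloading and Unloading, 44 of the 94 were higher and 9 lower, where 18.5% of all genes were higher and 19.0% lower. The median of the 94 was 0.27 on the log2 scale, compared to 0.03 over all genes. Between Unloading and Control 5 were higher and 1 lower, where 4.40% and 5.50% of all genes were. This count was 3 genes without Unloading 1, 10 with the replicate block by the description numbers and 13 with no filter on low counts. Between Reloading and Control 51 were higher and 14 lower, where 22.1% and 21.3% of all genes were. With library totals alone the Reloading against Unloading counts were 65 and 5. Of the 44 higher genes, 16 were in the list of endoplasmic reticulum genes of the other sensors, in which 0 were lower. List medians in that comparison ran from -0.16 for the relatives of the members to 1.15 for the endoplasmic reticulum list.

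The eIF2 kinases start the response. In either direction, 37.5% of all tested genes passed between Reloading and Unloading. Between Reloading and Unloading 1 of the 4 passed, Eif2ak1, the heme-regulated kinase, with a log2 fold change of -0.22 (adjusted p 0.0398); no kinase was called lower with library totals alone, and none passed without any 1 of the 5 Reloading and Unloading libraries. Eif2ak3, the PERK kinase that senses unfolded protein, had 3.93 ± 0.432 CPM in Control (SD, n = 4), 4.81 ± 0.234 in Unloading (n = 2) and 6.17 ± 0.273 in Reloading (n = 3). It was higher in Reloading than in Control (0.66, adjusted p 0.00106), and its difference from Unloading, 0.36, did not pass (adjusted p 0.0789). Eif2ak2, which binds double-stranded RNA, and Eif2ak4, which senses uncharged tRNA, gave 0.50 (adjusted p 0.111) and 0.00 against Unloading. Phosphorylation of these kinases or of eIF2 was not measured.

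The phosphatase subunits end the response. Ppp1r15a, the inducible subunit GADD34 and itself an Atf4 target, had 29.6 ± 2.33 CPM in Control (SD, n = 4), 30.2 ± 1.49 in Unloading (n = 2) and 67.2 ± 4.92 in Reloading (n = 3), a log2 fold change of 1.15 against Unloading (adjusted p 6.04e-07). The constitutive Ppp1r15b gave 0.24 (adjusted p 0.0817). Of 8 subunits of eIF2 and its exchange factor eIF2B, 2 were higher in Reloading than in Unloading (Eif2b4, 0.38, and Eif2s1, 0.21). Lower was 1 (Eif2s2, -0.66), where 18.5% of all tested genes were higher and 19.0% lower. Eif2s2 was also the one that was higher in Unloading than in Control (0.35, adjusted p 0.0287).

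Among 6 partner transcription factors, Atf3, a stress-induced factor that was also named by the study from these libraries, had 2.53 ± 0.888 CPM in Control (SD, n = 4), 4.00 ± 0.0538 in Unloading (n = 2) and 196 ± 34.7 in Reloading (n = 3), a log2 fold change of 5.61 against Unloading (adjusted p 1.44e-10). Atf5, a close relative of Atf4, was higher (0.50, adjusted p 0.000302), and Nupr1, a stress-induced chromatin protein, was lower (-0.75, adjusted p 0.00513). Cebpb, Cebpg and Nfe2l2 gave -0.03, -0.10 and 0.12 and did not pass. Against Control, Atf3, Atf5 and Cebpb were higher, and Cebpg and Nupr1 lower.

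Transporters that bring amino acids into the cell are a further group of Atf4 targets. Of 7 tested transporters 5 were higher in Reloading than in Unloading and none was lower, where 18.5% and 19.0% of all tested genes were. The list median was 0.63. Slc38a2, a carrier of small neutral amino acids, led with 90.9 ± 5.82 CPM in Control (SD, n = 4), 110 ± 8.20 in Unloading (n = 2) and 261 ± 18.4 in Reloading (n = 3), a log2 fold change of 1.26 (adjusted p 1.50e-07). Slc3a2, the heavy chain shared by several exchangers, gave the smallest difference that passed, 0.34 (adjusted p 0.00648). Without Unloading 1, 3 transporters passed. Slc7a11, the cystine importer, and Slc7a3 had at most 3 counts in any library and were not tested.

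Of 12 enzymes of serine, glycine, one-carbon and proline metabolism, 3 were higher in Reloading than in Unloading and 2 lower, near the share of all genes. Mthfd1l, a mitochondrial folate enzyme, gave the largest rise (1.78, adjusted p 0.000196), followed by Aldh18a1, which starts proline synthesis (1.28, adjusted p 0.000465), and Mthfd2 (1.16, adjusted p 0.00175). Gpt2, a mitochondrial alanine aminotransferase, had 375 ± 40.7 CPM in Control (SD, n = 4), 644 ± 110 in Unloading (n = 2) and 276 ± 18.8 in Reloading (n = 3). Gpt2 was thus higher in Unloading than in Control (0.78, adjusted p 0.000595) and lower in Reloading than in Unloading (-1.22, adjusted p 1.62e-06), the directions seen for Chac1. Cth, which makes cysteine, was lower in Reloading than in Unloading (-0.93, adjusted p 0.0317). With library totals alone 8 of the 12 were higher and 1 was lower.

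Aminoacyl-tRNA synthetases charge tRNAs with amino acids. Of 12, 6 were higher in Reloading than in Unloading and none was lower, where 18.5% and 19.0% of all tested genes were. The differences were small, from 0.23 for Aars (adjusted p 0.0339) to 0.53 for Wars1 (adjusted p 0.0138), and 3 passed without Unloading 1. Among 10 other stress targets, 3 were higher and 1 was lower, where 18.5% and 19.0% of all tested genes were. The death receptor Tnfrsf10b gave the largest rise (1.41, adjusted p 0.0128) and the lipoprotein receptor Vldlr was lower (-0.79, adjusted p 0.000131). Tnfrsf10b was low, with at most 28 counts in any library. It had 0.64 ± 0.48 CPM in Unloading (SD, n = 2) and 1.85 ± 0.52 in Reloading (n = 3).

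The list with the highest share of higher genes was that of 18 endoplasmic reticulum genes driven mainly by the Atf6 and Ire1 sensors, which act beside the Atf4 branch. Of these, 16 were higher in Reloading than in Unloading and none was lower, where 18.5% and 19.0% of all tested genes were. The list median was 1.15. All 18 were higher in Reloading than in Control, where 22.1% of all tested genes were. Sdf2l1, a luminal chaperone partner, gave the largest difference (2.14, adjusted p 2.93e-05), and Dnajc3, a luminal co-chaperone, the smallest that passed (0.31, adjusted p 0.0353). The 2 that missed were the sensors themselves, Atf6 (0.22, adjusted p 0.0797) and Ern1, which encodes Ire1 (0.20, adjusted p 0.289). None of the 18 passed between Unloading and Control, where 9.90% of all tested genes did. Of 8 mitochondrial stress genes, 4 were higher in Reloading than in Unloading and 1 was lower, where 18.5% and 19.0% of all tested genes were. The co-chaperonin Hspe1 led the higher genes (1.15, adjusted p 5.55e-06). The protease Lonp1 was lower (-0.29, adjusted p 0.0203), and was not called lower with library totals alone. Oma1, a protease that relays mitochondrial stress to eIF2, was the single list gene lower in Unloading than in Control (-0.38, adjusted p 0.0149).

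**Figure D4:**
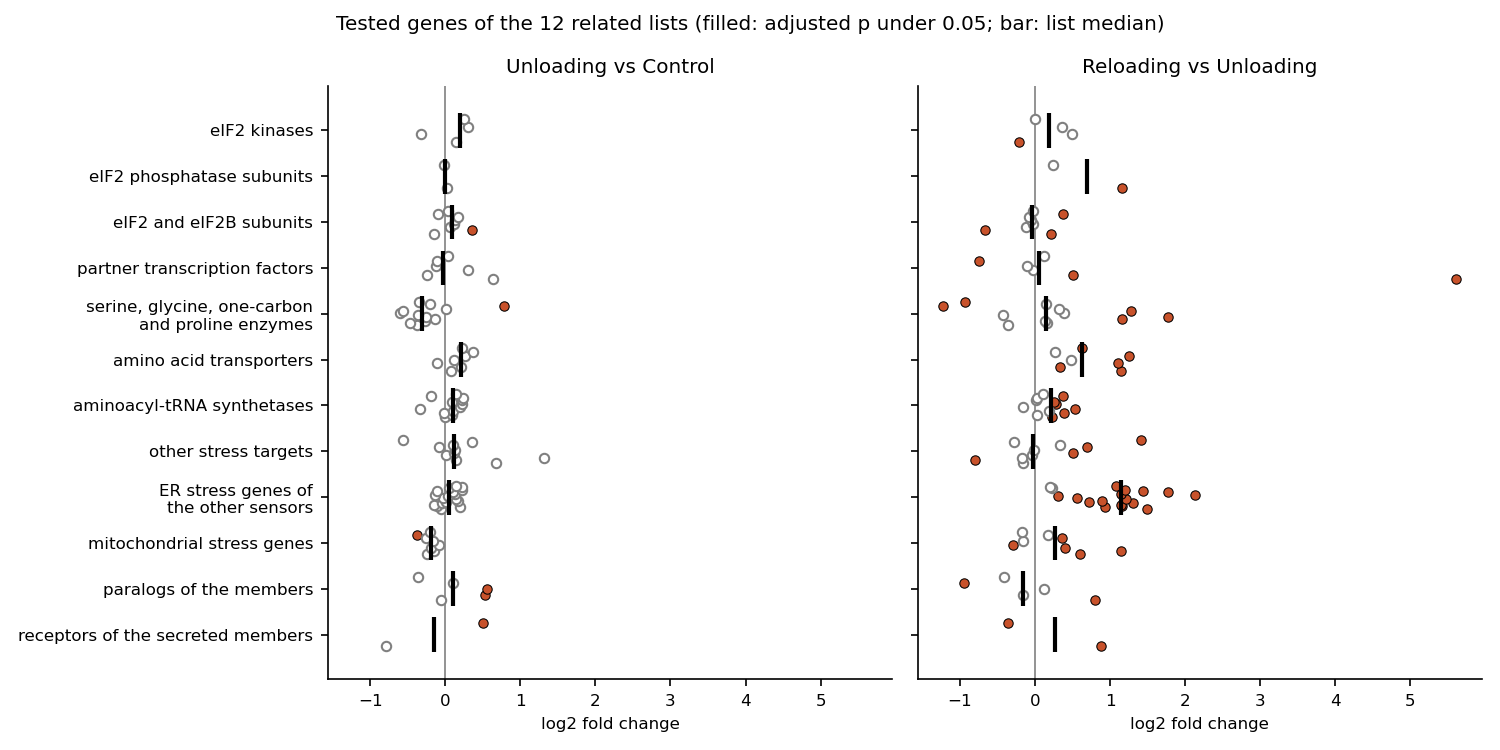
The log2 fold change of every tested gene of the 12 lists in Unloading against Control and in Reloading against Unloading, with 1 point per gene, filled where the adjusted p is under 0.05, and a black bar at each list's median. The points of the left panel lie near 0 with 6 filled, while in the right panel the endoplasmic reticulum list lies almost wholly to the right with 16 of 18 filled and Atf3 stands alone at 5.61.

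Of 5 close relatives of the members, 1 was higher in Reloading than in Unloading and 1 lower, where 18.5% and 19.0% of all tested genes were. Trib1 was higher in Reloading than in Unloading (0.80, adjusted p 0.00294), Sesn3 was lower (-0.94, adjusted p 2.19e-05), and Trib2, Sesn1 and Chac2 gave -0.16, 0.12 and -0.41 and did not pass (Chac2 adjusted p 0.0509). Trib2 and Sesn1 were higher in Unloading than in Control (0.54 and 0.55, adjusted p 0.0338 and 0.0195), where 4.40% of all tested genes were. Between Reloading and Control, 3 of the 5 relatives were higher and 2 lower, where 22.1% and 21.3% of all tested genes were. Trib1 (0.75), Trib2 (0.38) and Sesn1 (0.67) were the higher ones, and Sesn3 (-0.84) and Chac2 (-0.78) the lower ones. Of the receptor genes for the secreted members, Fgfr1, the Fgf21 receptor, was higher in Unloading than in Control (0.50, adjusted p 0.000805) and lower in Reloading than in Unloading (-0.36, adjusted p 0.0014, not called lower with library totals alone). Ret, the signalling partner of Gfral, was higher in Reloading than in Unloading (0.88, adjusted p 0.0236). Gfral itself had 0 counts in every library, which allows up to 0.164 to 0.338 CPM, and Klb, the Fgf21 co-receptor, had at most 5 counts and was not tested.

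Whole muscle holds many cell types, and in such samples fewer cells of a type and less RNA per cell cannot be told apart. Between Reloading and Unloading, 18.5% of all tested genes were higher and 19.0% lower. Of 10 macrophage markers 8 were higher, with a median log2 fold change of 0.74 over the 10. Their summed CPM was 171 to 193 in Reloading, 88.9 to 89.0 in Unloading and 85.5 to 104 in Control. Cd68 rose most, with 48 and 46 counts in Unloading and 532, 697 and 670 in Reloading. Of 7 endothelial markers 6 were higher (280 to 349 CPM against 166 to 167 and 164 to 194), and of 5 smooth muscle markers all 5 were (168 to 190 CPM against 97.5 to 101 and 112 to 137). Of 6 fast-fibre markers 4 were lower, at 76150 to 86870 CPM in Reloading against 109700 to 114700 in Unloading. Of 5 slow-fibre markers 2 were lower and 0 higher, at 293 to 349 CPM in Reloading against 364 to 590 in Unloading. Fibroblast markers were split, with 2 of 5 higher and 2 lower. The summed CPM of 6 neutrophil markers was between 0.214 and 5.64 in all libraries. Of the 6, 2 had enough counts to be tested, and neither passed between Reloading and Unloading. Ly6g and Cxcr2 were at 0 in both Unloading libraries. Cxcr2 had 0, 1, 0 and 0 counts in Control and 9, 4 and 6 in Reloading, while Ly6g had at most 1 count. In Unloading against Control none of the 10 macrophage markers passed, where 4.40% of all tested genes were higher and 5.50% lower. In the same comparison 2 of 7 endothelial, 1 of 5 smooth muscle and 2 of 6 fast-fibre markers were lower. Of 5 fibroblast markers 2 were higher and 2 lower. The part of these cell types in the changes of Atf4 and its targets was not tested.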

How the data were processed

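The deposited table holds raw counts of read pairs per gene, made by the authors with STAR 2.7.3a on GRCm38.p6 and featureCounts 2.0.3, unstranded, against Ensembl release 102. Multi-mapping pairs were not counted, which lowers genes with near-identical copies. The authors' methods state single reads of RNA with an integrity number above 8, while the labels and the table state pairs. The authors also deposited DESeq2 tables of shrunken log2 fold changes, p-values and mean signal; only the gene symbols of 1 of these tables were used, for 14823 tested genes, with 23 symbols from a reference table of gene names.

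The tests ran on these counts with edgeR 4.0.16 (R 4.3.3), after filterByExpr (minimum count 10, minimum total 15) and TMM scaling. The model held all 9 libraries and had no term besides the group, so that the 2 Unloading libraries borrowed their spread from the rest. For each comparison the two-sided quasi-likelihood F-test was adjusted over 14851 genes (Benjamini and Hochberg, called under 0.05). Biological variation between libraries had a common coefficient of 0.0927. Standard errors and 95% intervals came from the F statistic. Log2 CPM used a prior count of 2. The floor of 3 counts covers counting error only. The procedure was tested on simulated data. Promoters came from RefSeq (GRCm38.p6), and shared 50-base sequences were found in GENCODE M21.

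The members and lists were chosen with earlier results of these data known. Of each list, the genes with the largest and smallest difference past the threshold are named, every gene of lists of 6 or fewer, all kinases and phosphatase subunits, and the 3 genes most like Atf4; the ranking on Chac1 and other list genes named were chosen after their values were seen. The replicate numbers of the titles did not pair libraries (correlation of deviations -0.201 to 0.0752 over 7 pairs). The numbers in the sample descriptions gave 0.143, 0.155 and 0.361 for the 3 pairs of Control and Reloading. These were the highest values among all pairs of a Control and a Reloading library. The highest value belongs to the 2 libraries with skin transcripts. Control 1 and Reloading 3, which have unlike description numbers, came next with 0.117. The origin of the description numbers is not stated, and whether they pair libraries was not tested further. They were not taken as pairing in the main model, and served as a block only among the alternatives. For the 6 pairs by description the range was 0.0172 to 0.361. The alternatives were other scalings, filters, DESeq2 1.42.0, robust dispersions, fits of 2 groups, replicate blocks and leaving out libraries. No library was identical to another.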

Additional observations from a re-analysis of the deposited data

How the results depend on the processing

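The 24 log2 fold changes of the 8 tested genes were recomputed under 19 alternatives, which gave 456 values. Of these, 442 counted as unchanged in direction and side of the threshold, 3 lost the call, 9 gained one and 2 changed sign. DESeq2 gave no adjusted p for Trib3 and Asns in Unloading against Control, and those values counted as unchanged by direction alone. The count of members past the threshold was 6 for Reloading against Unloading and stayed at 6 when each library was left out, and it was 5 to 6 for Reloading against Control. For Unloading against Control it was 0 to 1 when each library was left out, with 0 without Unloading 2, and 0 with robust dispersion estimates, since Chac1 then had adjusted p of 0.0594 and 0.0818; over all alternatives its adjusted p ranged from 6.71e-82, in the fit with no filter on low counts, to 0.0818. The value that changed sign was that of Asns in Unloading against Control, which did not pass in any fit: it was -0.05 with all libraries, and -0.37 to 0.27 when each library was left out, with 0.05 without Control 1 and 0.27 without Unloading 2. Library totals alone gave 7, 1 and 7 members past the threshold in the 3 comparisons and moved the share of higher genes among all calls from 49.3% to 82.8% for Reloading against Unloading and from 50.9% to 80.2% for Reloading against Control. The fit with no filter on low counts gave 6, 1 and 7, with Chac1 at -0.48 against Control (adjusted p 1.49e-07) and Sesn2 at 0.54 (adjusted p 0.0397); the cause was not tested. DESeq2 gave 6, 1 and 4.

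With the replicate block by the description numbers, the counts of members were 6, 1 and 5 and no member's call changed. The list genes past the threshold in Unloading against Control rose from 6 to 10 under this block, and were 13 with no filter on low counts. With the block by the title numbers, which share only a number, they were 6, 1 and 7: Sesn2 (0.69, adjusted p 0.0281) and Chac1 (-0.58, adjusted p 0.0063) passed in Reloading against Control. Over all genes, Unloading against Control gave 1470 calls, 949 without Control 3 and 121 without Unloading 1, the largest shift. Low counts limit Trib3, Asns, Psat1, Phgdh and Sesn2, and Fgf21 and Gdf15 could not be tested.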
